A study of Xenopus laevis with 8 samples.

Results

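Most of the genes described here are known response genes of the ERK kinase pathway, measured in foregut endoderm of the frog Xenopus laevis. The exception is rps6ka1, which encodes a kinase that ERK activates, and for short all are called response genes below. All were chosen by name: egr1, dusp1, dusp6, rps6ka1, etv1, etv4, spry1, spry2, fos and jun. The choice was made with earlier results of these arrays known, since egr1, dusp1 and rps6ka1 had stood out in the same comparison. Their differences are therefore given as a description. Of the 10 genes, 8 had a probe set among the 3968 gene names that could be read from the array's annotation, and they had 13 of the 15491 probe sets. A probe set is the group of short probes that reports 1 transcript. No probe set was matched to dusp6 or spry1, which were not analysed here.

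The study asked which genes neighbouring mesoderm induces in the foregut endoderm. Foregut explants were cut from embryos at stage 15 and cultured to stage 23. In 4 samples the endoderm was cultured alone, and in the other 4 the explant was left intact and the endoderm was dissected away from its mesoderm at stage 23. The samples were numbered as sets 1 to 4, with 1 sample of each condition in a set, and all were cultured in the same medium with no added agent, mutation or transgene named in the labels. The submitters' column labels mark the sets as bio rep 1 to 4. The labels do not say how many explants were pooled, or whether the sets came from separate clutches. The spread between sets may therefore be technical in part. Endoderm cultured alone was separated from mesoderm at the start of culture and endoderm cultured with mesoderm at its end, so the presence of mesoderm and the time of dissection cannot be told apart.

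When a growth factor such as an FGF binds its receptor tyrosine kinase, Ras and a chain of kinases activate ERK, which phosphorylates transcription factors in the nucleus. The first genes to respond, among them egr1 and fos, need no new protein synthesis and are called immediate early genes. Other responders, including dual-specificity phosphatases and Sprouty proteins, restrain the pathway in turn. In early Xenopus embryos FGF and ERK signalling is known for its part in mesoderm formation, and in vertebrate foregut endoderm FGF from the cardiac mesoderm is a known inducer of liver and lung.

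Values are RMA intensities on a linear scale, and differences are log2 values with mesoderm minus alone within a set, given as mean ± SD over the 4 sets. The array medians lay between 128 and 131. The 44 probe sets for bacterial and tag sequences, which should find no target in frog RNA, averaged 19.0 to 26.3 per array, and the brightest of them reached 69.6 to 109. A probe set at or below the brightest of these on an array is called at background there. Set 4 stood apart: the SD of the difference over all probe sets was 0.53 there, against 0.25, 0.31 and 0.33 in sets 1, 2 and 3. Negative controls also differed in set 4, by a median of 0.36, against -0.08, 0.07 and -0.13 in the other sets. Of 12 endoderm markers, 9 were measured, 6 were above background on all 8 arrays, and none was called different by limma. The foregut and anterior endoderm markers hhex and cer1 were at background on all 8 arrays, and sox17b, foxa2 and a2m were not matched, so these markers did not show the foregut identity of the endoderm.

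Egr1, a zinc finger transcription factor of the immediate early class, was higher with mesoderm in all 4 sets. In endoderm alone its intensities in sets 1 to 4 were 125, 75.7, 154 and 41.2. With mesoderm they were 506, 431, 273 and 141. Every set therefore showed a higher value with mesoderm, but the groups overlapped, because set 4 with mesoderm lay below set 3 alone. Set 4 alone was the one array of the 8 on which egr1 was at background, so the size of the set 4 difference is uncertain. The ratios within sets were 4.05, 5.70, 1.77 and 3.41, and the mean difference was 1.78 ± 0.71 (n = 4), a 3.43-fold ratio. In a bulk sample, more cells of a type and more RNA per cell cannot be told apart. The limma fit with set as a block gave the adjusted p of 0.0404 that helped choose this gene, and without the block it was 0.989. Leaving out set 1 gave 0.207, and leaving out set 2 gave 0.197. Without set 3 or 4 it was 0.0108 or 0.00593.

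**Figure D1:**
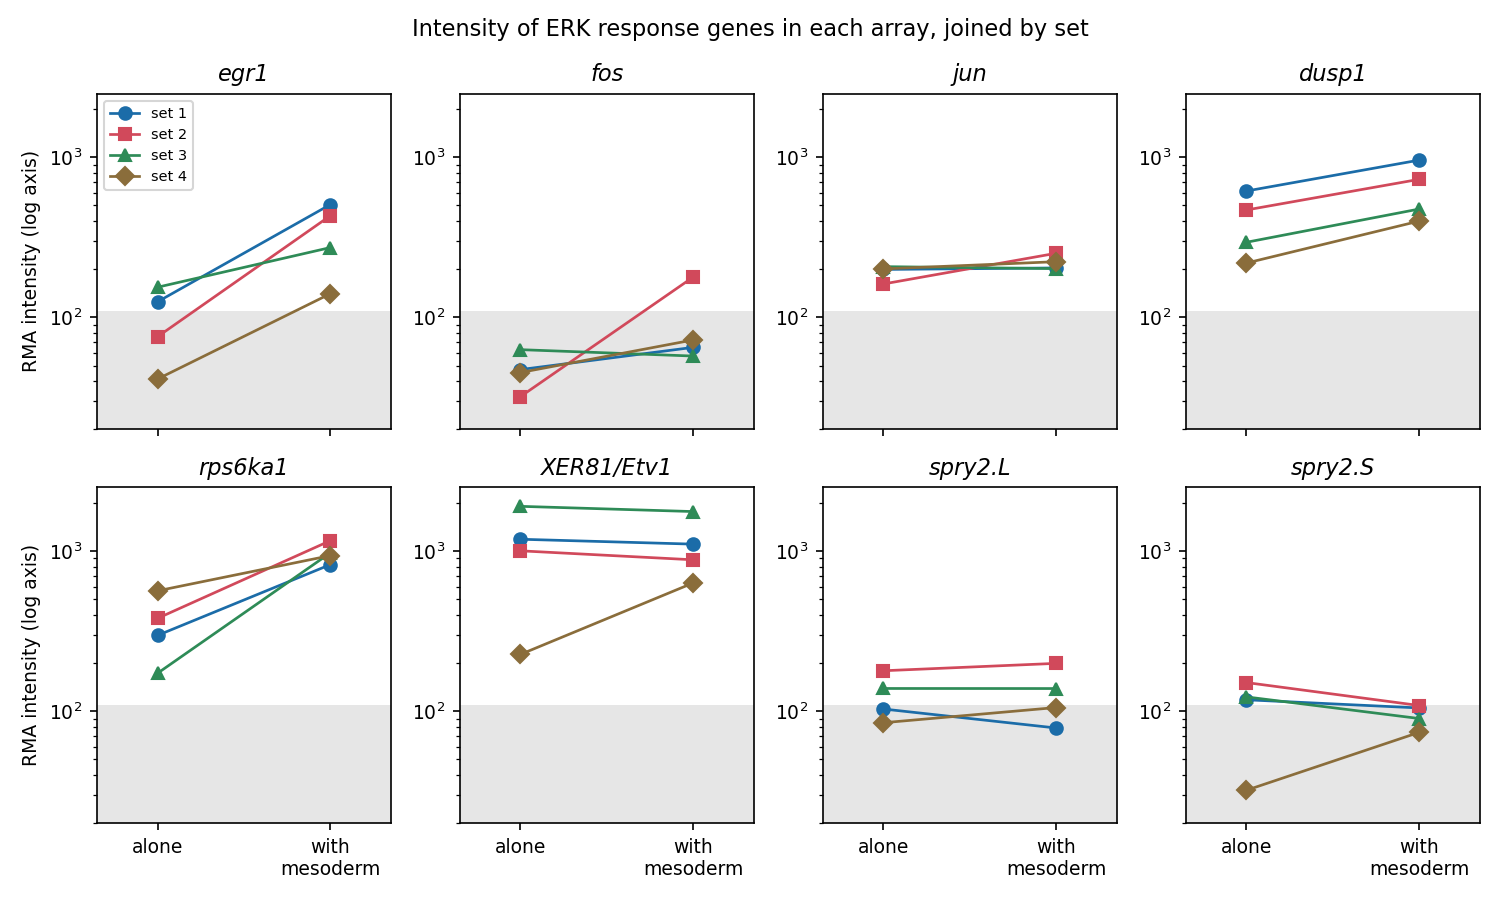
RMA intensity (log axis) of 8 probe sets of the ERK response genes on the 8 arrays, with a line joining endoderm alone to endoderm with mesoderm within each of the 4 sets. The grey area reaches 109, the brightest negative control of any array. The egr1, dusp1 and rps6ka1 lines rise in all 4 sets, whereas fos rises by far the most in set 2.

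Fos and Jun form the AP-1 transcription factor, and fos, like egr1, is an immediate early gene. The brighter fos probe set read 47.2, 32.0, 62.9 and 45.3 in endoderm alone. With mesoderm it read 65.0, 179, 57.3 and 72.3. Only set 2 with mesoderm was above background, at 5.58 times its partner, and in set 3 the value with mesoderm was the lower one. The mean difference was 0.87 ± 1.13, and without set 2 it was 0.33. A second fos probe set was at background on all 8 arrays, with a difference of 0.15 ± 0.40. Jun read 199, 162, 207 and 201 alone, and 204, 251, 202 and 223 with mesoderm. As for fos, its largest difference was in set 2, at 0.64, while the other sets lay at 0.03, -0.04 and 0.15. The mean for jun was 0.19 ± 0.31, and 0.05 without set 2.

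Dusp1 is a phosphatase that removes the activating phosphates from ERK and related kinases, and its gene is itself switched on by them. The main probe set read 615, 468, 294 and 218 in endoderm alone. It read 959.7, 728, 475 and 399 with mesoderm. The sets kept the same order in both conditions, from set 1 down to set 4, so the groups overlapped although every set was higher with mesoderm. The differences of 0.64, 0.64, 0.69 and 0.87 were the most even of the 13 probe sets, with a mean of 0.71 ± 0.11, a 1.64-fold ratio. Its adjusted p, also among the values behind the choice, was 0.0490 with set as a block and 1.00 without. With set as a random effect it was 0.165, and without set 1, 2 or 3 it was 0.283, 0.315 or 0.172. Without set 4 it was 0.0102. A second probe set, whose gene ID RefSeq gives to dusp1.S, the copy on the S subgenome of this tetraploid frog, was at background on all arrays. Its difference was 0.34 ± 0.44.

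Rps6ka1 encodes RSK1, a kinase that ERK binds and activates and that passes the signal on to its own substrates. Its probe set read 298, 380.2, 173 and 565 in endoderm alone. With mesoderm it read 823, 1161, 975 and 937. This was the one member whose groups did not overlap, a separation in that direction that 1.03% of all probe sets showed. The values with mesoderm were close together, with a log2 SD of 0.20, against 0.72 for endoderm alone. The ratios within sets were 2.77, 3.05, 5.65 and 1.66, and the mean difference was 1.58 ± 0.72, a 2.98-fold ratio. The adjusted p known when it was chosen was 0.0490 with the block and 0.447 without. Leaving out set 1, 2 or 3 gave 0.233, 0.254 or 0.0873, and leaving out set 4 gave 0.000933. The related kinase rps6ka3, which is RSK2 and belongs to the wider pathway list below, had a difference of -0.08 ± 0.40.

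ETS factors of the PEA3 group, etv1 and etv4 among them, are long-used readouts of FGF signalling in vertebrate embryos. The array annotates 3 probe sets as XER81, and RefSeq lists both XER81 and Etv1 as older names of etv4.L, so whether the probe sets report etv1 or etv4 is uncertain. The bright one read 1186, 1004, 1903 and 226 in endoderm alone. It read 1105, 882, 1765 and 633 with mesoderm. Set 4 alone lay far below the rest, and set 4 was the only set with a higher value with mesoderm. The differences were -0.10, -0.19, -0.11 and 1.48, with a mean of 0.27 ± 0.81. Without set 4 the mean was -0.13 ± 0.05, of the opposite sign. The other XER81 probe sets were at background on all 8 arrays and differed by 0.00 ± 0.27 and 0.10 ± 0.29.

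Spry2 encodes a Sprouty protein, an inhibitor that acts between receptor and Ras and whose gene FGF signalling induces in many tissues. The probe set that RefSeq's gene ID puts at spry2.L read 103, 179, 139 and 84.8 alone, and 78.6, 199, 139 and 105 with mesoderm. Its difference was 0.02 ± 0.30, and a second probe set of the same copy gave -0.02 ± 0.44. These spry2.L probe sets were above background on 6 and 4 of the 8 arrays, so the sizes of their differences are uncertain. The spry2.S probe set read 118, 151, 123 and 32.1 alone, and 105, 109, 90.0 and 73.8 with mesoderm. Here too set 4 alone was the low array, and the differences were -0.17, -0.48, -0.45 and 1.20. The spry2.S probe set was above background on 5 of the 8 arrays. Both set 4 values and the value with mesoderm in set 3 were at background, so the sizes of those differences are uncertain. The mean was 0.03 ± 0.80 over the 4 sets and -0.36 ± 0.17 without set 4.

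**Figure D2:**
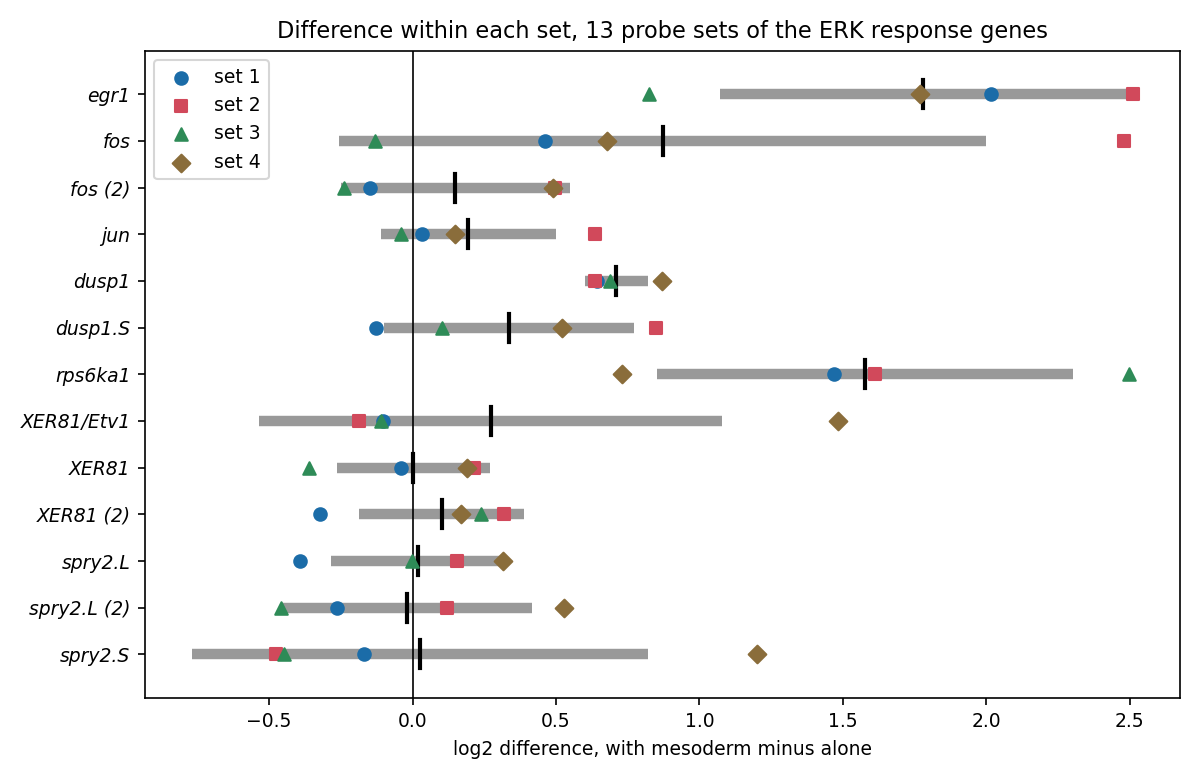
Log2 difference with mesoderm minus alone for each of the 13 probe sets, 1 point per set, with a black tick at the mean over the 4 sets and a grey bar of ± 1 SD; (2) marks a second probe set of the same name. The dusp1 points lie together between 0.64 and 0.87, while the bright XER81 probe set and spry2.S have 3 sets below 0 and set 4 above 1. Both spry2.S values of set 4 were at background.

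The 13 probe sets did not move as one group. Those of egr1, dusp1 and rps6ka1 were called higher and none was called lower, beside 0.258% of all probe sets called higher and 0.129% called lower. These calls are what the choice used, and nothing is read from this count or from the next counts and medians. Those include the same 3 probe sets, except the median over the 10, which leaves them out because they were called. Egr1, dusp1 and rps6ka1 alone of the 13 were higher in all 4 sets, as were 8.35% of all probe sets. The median difference over the 13 was 0.19, against 0.01 over all probe sets, and 0.13 over the 10 that were not called. The mean difference was above 0 for 12 of the 13, against 51.6% of all probe sets, and without set 4 for 8.

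The sets contributed unequally to those differences. All 13 probe sets were higher with mesoderm in set 4, the set with the shifted negative controls, and 11 were higher in set 2. In sets 1 and 3 only 5 of the 13 were higher. Egr1, dusp1 and rps6ka1, chosen with this contrast known, are in each of these counts, so nothing is read from the counts. The median difference over all probe sets was -0.02, 0.03, -0.03 and 0.05 in sets 1 to 4. Less the median difference of the negative controls, some set 4 differences fell below 0. These were jun, at -0.22, the dim XER81 pair, at -0.17 and -0.19, and the first spry2.L probe set, at -0.05. The shift was that of probe sets without a target, and jun was above background on all 8 arrays. The shift need therefore not apply to jun, whose set 4 difference was 0.15 as measured. The largest of the 4 differences fell in set 2 for 7 probe sets, those of egr1, fos, jun, dusp1.S and the dim XER81 pair. It fell in set 4 for 5 probe sets and in set 3 for rps6ka1. Background limits this comparison, because 4 of the 13 probe sets were at background on every array and only 4 were above it on all 8.

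Set identity and culture condition took very different shares of the variation of the members. For dusp1, the set number held 69.3% of the sum of squares over the 8 arrays, the condition 30.1% and the remainder 0.544%. For egr1 the set held 32.8%, the condition 60.0% and the remainder 7.13%. For rps6ka1 these were 13.2%, 75.0% and 11.9%. The condition held more than 50% for 2 of the 13 probe sets, egr1 and rps6ka1, and the set for 7. Over all probe sets the median share was 73.6% for the set and 4.21% for the condition. Egr1, dusp1 and rps6ka1 were chosen with this contrast known, so nothing is read from their condition shares beside that median.

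**Figure D3:**
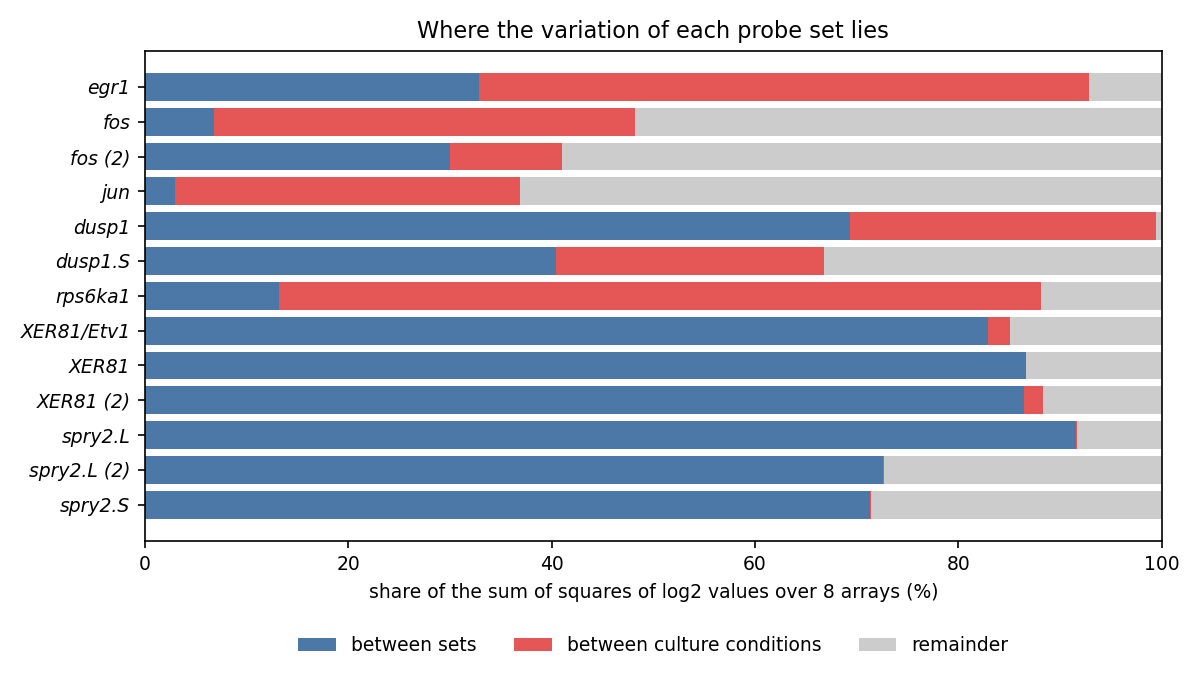
Share in percent of each probe set's sum of squares over the 8 arrays that lies between sets, between conditions and in the remainder. Condition takes 60.0% for egr1, 75.0% for rps6ka1 and 30.1% for dusp1, whose remainder is 0.544%.

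Some markers of myeloid and blood cells were also higher with mesoderm. Of 11 such markers, chosen with earlier results known, 10 were measured, all 10 had a mean difference above 0, and 5 were higher in all 4 sets. Lcp1, prtn3 and csf2rb were called higher by limma (adjusted p 0.0490, 0.0490 and 0.0292), beside 0.258% of all probe sets. They were above background on 6, 4 and 3 of the 8 arrays, so the sizes of their differences are uncertain. Because of how the list was chosen, nothing is read from these calls. Lyz, tal1 and hba1 were at background on all 8 arrays. Cebpa and gata1 were higher in 2 sets each. Cebpa, above background on all 8 arrays, had differences of -0.14, 0.06, 1.60 and -0.05. The summed intensity of the list was 1139 to 2409 in endoderm alone and 2591 to 5319 with mesoderm. Mpo and cebpa, the brightest of the list at 768 and 689 on average, weighed most in this sum. The order of the sum over the sets is therefore not separate from theirs. Within sets 1 to 4 the sum with mesoderm was 1.85, 2.56, 3.55 and 1.20 times that alone. Set 3 was the highest, followed by sets 2, 1 and 4, and the ratios of rps6ka1 fell in that order too. The granule protein genes mpo, with differences of 1.89, 2.37, 3.87 and 0.18, and prtn3, with 1.82, 2.64, 2.98 and 0.79, shared it, as did lcp1. None of the other measured markers shared it. Csf2rb, with 0.79, 1.33, 1.05 and 1.10, was highest in set 2 and lowest in set 1. Lmo2 was highest in set 1 and lowest in set 3. Cebpa was highest in set 3 but lowest in set 1, and gata1 was highest in set 4. Lyz, tal1 and hba1, at background, had other orders too. Egr1 followed another order, with set 2 highest and set 3 lowest, and dusp1 was nearly even. The part of these cells in the differences of the response genes was not tested.

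**Figure D4:**
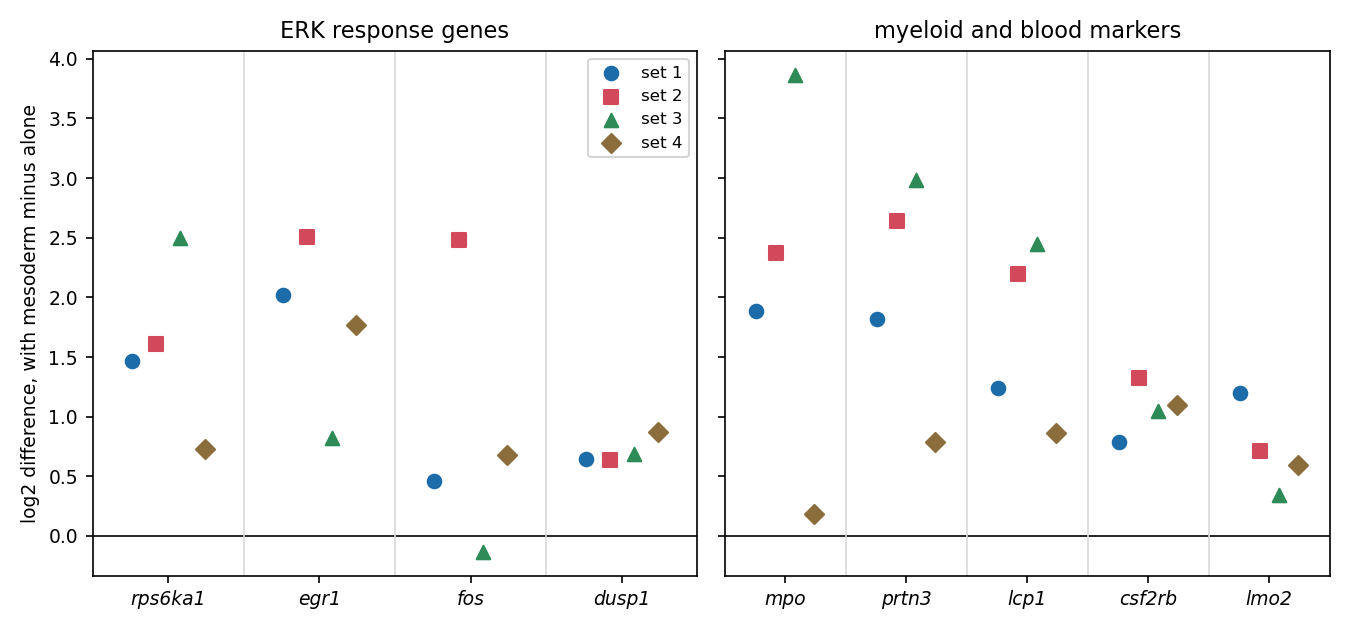
Log2 difference with mesoderm minus alone in each of the 4 sets for rps6ka1, egr1, fos and dusp1 (left) and for 5 myeloid and blood markers (right). The 5 shown are the measured markers of the list that were higher in all 4 sets. Set 3 is highest and set 4 lowest for rps6ka1, mpo, prtn3 and lcp1, whereas set 2 is highest for egr1 and fos.

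Of 11 heart and lateral plate mesoderm markers, 10 were measured, 6 were at background on all arrays and none was called or was higher in all 4 sets. One of them, gata4, is an endoderm marker as well. Their summed intensity was 1196 to 2130 alone and 1261 to 2292 with mesoderm. No marker of muscle, neural tissue, epidermis or notochord was called. In set 4, where XER81 and spry2.S were higher with mesoderm, the summed neural, muscle and epidermis markers were 1.88, 1.48 and 1.42 times those alone, although all 3 epidermis and 4 of 5 muscle markers were at background on all arrays. Single markers differed widely in that set, by 2.16 for sox3, 1.42 for nkx2-5 and 1.20 for bmp4, and by -1.50 for sox17a and -1.14 for gata4. Their part in the set 4 values of the response genes was not tested.

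The wider pathway list held 120 other genes of FGF and ERK signalling, of which 49 were measured and 71 were not matched. By limma, 0 of the 49 were called higher and 0 lower, beside 0.387% of all probe sets called in either direction. At an unadjusted p under 0.05, 1 was higher and 5 were lower, against 9.35% of all probe sets in either direction. Differences were above 0 for 28 genes and below 0 for 21, with a median of 0.04. On every array, 14 of the 49 were at background.

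Within most roles genes lay on both sides of 0, and the medians by role were small. The 11 ligands had a median of 0.05, the 9 receptors -0.04, the 6 adaptors and Ras proteins 0.17 and the 6 kinases 0.02. The 6 transcription factors that ERK acts on or beside had a median of 0.03, and the other 10 immediate early genes had 0.03. Among the brightest genes of the roles, the differences were -0.43 for the ligand fgf2, -0.14 for the receptor fgfr4 and 0.18 for the GTPase kras. They were 0.11 for cbl, a ubiquitin ligase that ends receptor signalling, -0.60 for the factor ets1 and -0.36 for the growth inhibitor btg1. None of these passed the test. Further probe sets gave 0.48 and -0.38 for ets1, 0.10 and 0.04 for fgfr4, 0.11 and -0.17 for kras and -0.03 for fgf2. Single sets decided several of the values of the brightest probe sets: btg1 had -1.35 in set 4 and a mean of -0.03 without it. Fgfr4 had -0.04 without set 3, and cbl 0.00 without set 1. The brightest fgf2 and ets1 probe sets were lower with mesoderm in every set, and that of fgf2 had -0.25 without set 4.

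The other genes under an unadjusted p of 0.05 were named after their values were seen. Mknk1, a kinase that ERK activates, had a difference of 0.38, and 0.09 on its other probe set. Its relative mknk2 had -0.65, and 0.02 on its other probe set. These mknk2 probe sets were above background on 5 and 4 of the 8 arrays, so the sizes of their differences are uncertain. Fgf8, a ligand of the early embryo, read 112, 88.6, 168 and 28.9 alone. It read 79.1, 49.7, 51.0 and 37.8 with mesoderm, a difference of -0.67. It was above background in sets 1 to 3 alone and on no other array, so its values with mesoderm are bounds and the size of the difference is uncertain. Its other probe sets, at background on all 8 arrays, gave -0.01 and -0.36. Ccn2, a matricellular immediate early gene, had -0.71 and the lowest adjusted p of the list, 0.111, while its other probe set gave -0.17. Without set 4 the limma fit called fgf8 lower, with an adjusted p of 0.0317, and ccn2 lower, with 0.0330. That fit called 275 of all 15491 probe sets. In it, less bright probe sets of ets1 and klf6 were called higher, with adjusted p of 0.0371 and 0.0429. Over the 4 sets these differed by 0.48 and 0.50, and the brightest klf6 probe set by 0.03. The ets1 one was above background on 2 of 8 arrays. Endoderm alone in set 4 also gave the lowest fgfr1 value, 232, where sets 1 to 3 alone gave 503 to 756, as it did for XER81, spry2.S and egr1.

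**Figure D5:**
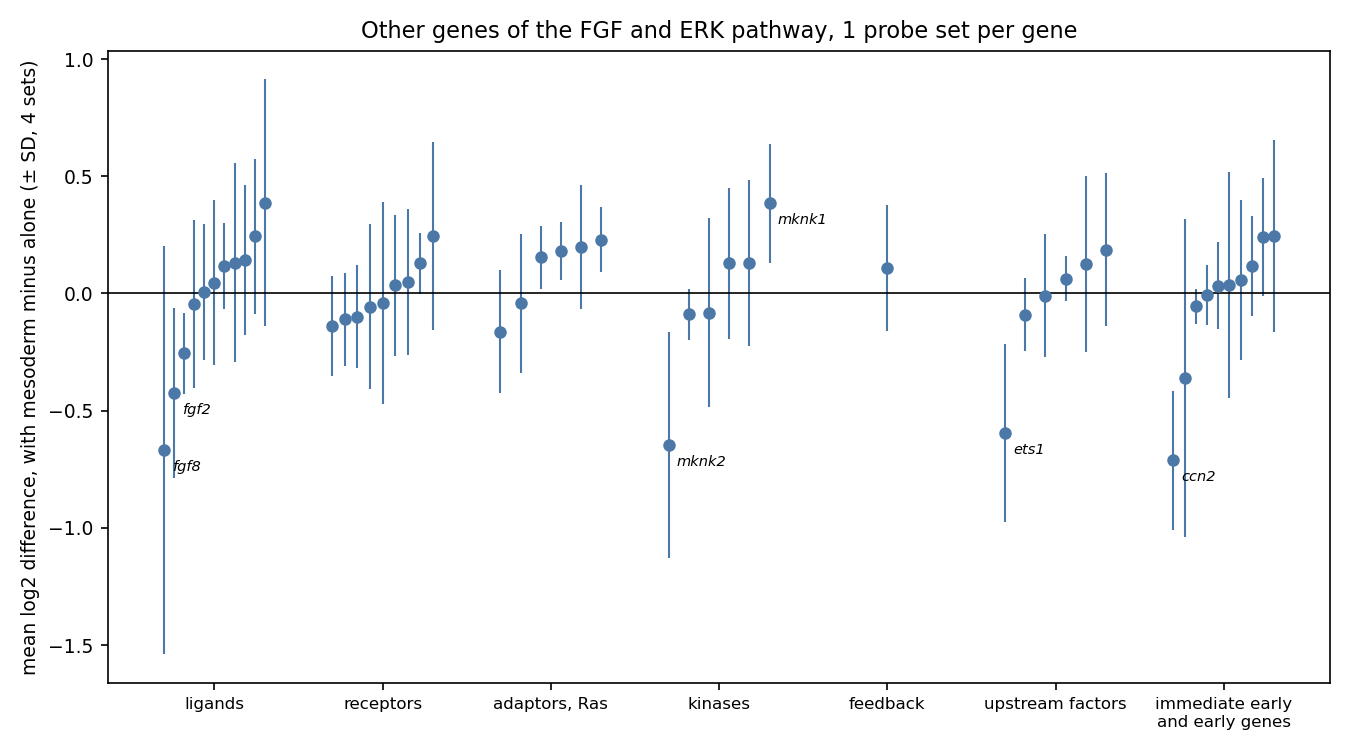
Mean log2 difference with mesoderm minus alone over the 4 sets for the 49 measured genes of the FGF and ERK list, 1 point per gene with bars of ± 1 SD, grouped by role. The points run from -0.71 for ccn2 to 0.39 for the ligand fgf20, and none passed the adjusted threshold.

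The genes with profiles most like that of egr1 over the 8 arrays were found by the root mean square distance between log2 profiles, each centred on its own mean. The measure includes the difference between conditions and describes these arrays only. A flat profile lay 1.15 from egr1, and the median probe set 1.18. The nearest named genes were lmo2, a cofactor of blood transcription factors, at 0.61 and mig30 at 0.70. After them came pik3r5, a regulatory subunit of a phosphoinositide 3-kinase, at 0.76, ventx2.1, a ventral homeobox gene that BMP induces, at 0.77, and the hexokinase gene hk2, at 0.77. Hk2 was at background on all 8 arrays. Mig30 was at background on every array alone and in set 4 with mesoderm, so both distances are uncertain. Mig30 had 7 probe sets and ventx2.1 had 3, and the nearest of each is given. Lmo2 is also on the myeloid and blood list, and its own differences in sets 1 to 4 were 1.19, 0.71, 0.34 and 0.59. Dusp1 was the nearest member, at 0.74, with 16 of the other 15490 probe sets nearer, named or not. Fos followed at 0.85, and rps6ka1 was at 1.08, close to the distance of a flat profile.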

How the data were processed

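The authors hybridised labelled RNA from 8 endoderm samples, 1 array each, to Affymetrix Xenopus laevis arrays. The deposited values are intensity values made with RMA per the submitters' processing notes, on a linear scale with no version given; the log2 was taken here. RMA quantile normalization makes array medians alike. Signals near the negative controls understate fold changes.

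Of 15611 probe sets, 120 controls were left out. Names came from the annotation, with older names and gene IDs updated through RefSeq (Xenopus_laevis_v10.1), and 5878 probe sets were named. limma 3.58.1 in R 4.3.3 (lmFit, eBayes) was fitted to all 15491 with set number as a block and Benjamini-Hochberg adjustment, called under 0.05. A trial on simulated data used only changes larger than the mean difference of any member. It therefore does not bear on calls at the sizes of the members. Same-numbered samples deviated together, with correlations of 0.84, 0.85, 0.69 and 0.32. A gene with several probe sets was represented by its brightest, except that every member probe set is given. Genes near egr1 were ranked by their nearest probe set instead. Named were the members, called pathway genes, the brightest of each role (1 of which is not reported here) and the 5 nearest to egr1. Members and lists were chosen with earlier results of these data known. Alternatives were no block, a random set effect, trended priors, array weights, renormalization, a dim filter, a looser threshold and leaving out each set. The number of arrays limits the precision.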

Additional observations from a re-analysis of the deposited data

Results flagged for a closer look

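Dixon's criterion, which chance meets in about 5% of groups, was applied to log2 values. Among the 26 groups of 4 values that the 13 probe sets gave, 2 held a sample far from the other 3. They are given here as linear intensities. Jun in endoderm alone was 162 in set 2, where the other sets gave 199 to 207. The spry2.S probe set in endoderm alone was 32.1 in set 4, a value at background, where the other sets gave 118 to 151.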

How the results depend on the processing

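The mean differences of egr1 (1.54 to 2.10), dusp1 (0.66 to 0.76) and rps6ka1 (1.27 to 1.86) stayed above 0 under the 12 alternatives run for each, but they passed the adjusted threshold in 7, 4 and 5 of them. With set number as a replicate block limma called 60 probe sets, and without the block 0, although 203 with a higher and 181 with a lower mean had an unadjusted p under 0.05. Adjusted p-values for egr1, dusp1 and rps6ka1 were 0.0591, 0.0677 and 0.0558 after a further quantile normalization, and 0.0656, 0.0828 and 0.0660 after cyclic loess. Without dim probe sets they were 0.0441, 0.0539 and 0.0539. The further quantile normalization called 24 probe sets, cyclic loess 21 and the dim filter 42. Array weights called 430 and an adjusted threshold of 0.1 called 106. Leaving out 1 set gave 0 to 275, with 2 without set 1, 0 without set 2 and 12 without set 3, and 275 without set 4. Without set 2, an unadjusted p under 0.05 was found for 397 probe sets with a higher mean and 455 with a lower one. Of the pathway genes, 2 were called lower with array weights and 0 to 2 when 1 set was left out. None of the other 10 member probe sets passed the threshold under any alternative (120 values). The causes were not tested. Signal at background limits fos, dusp1.S, the dim XER81 pair, the spry2.L probe sets, egr1 in set 4 and, in sets 3 and 4, spry2.S.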
